A study of Mus musculus with 4 samples.

Results

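Matricellular proteins of the fibrotic scar were examined as 10 genes chosen by their symbols in the deposited table, THBS1, THBS2, THBS4, TNC, FN1, POSTN, SPARC, SPARCL1, FBLN1 and FBN1. These genes, hereafter the members, are written as mouse symbols from here on. Of these 10, 8 had a value at 7 or 21 days post injury (dpi), among 14718 genes listed in all. At 7 dpi 7 members were listed among 14125 genes, at 21 dpi 6 among 11472 genes, and 5 were listed at both. Sparc and Thbs4 had no value at either time point in the table used here, Thbs2 and Fbn1 had a value at 7 dpi only, and Fn1 at 21 dpi only. All rows of the table had passed the status check of the authors' comparison program, so a gene without a value cannot be read as absent from the tissue.

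RNA-seq was carried out on spinal cord segments that held the lesion site of male mice with an incomplete contusion injury of the thoracic cord. The mice were human ApoE targeted replacement animals, in which the coding region of human ApoE3 or human ApoE4 takes the place of the mouse gene, and they were injured as adults at 3 to 5 months of age. There were 4 groups, ApoE3 at 7 dpi, ApoE4 at 7 dpi, ApoE3 at 21 dpi and ApoE4 at 21 dpi, and all 4 were injured, so no uninjured or sham-operated level stands beside these values. Each group was made from 3 mice but has 1 value per gene, as FPKM, a level of RNA corrected for transcript length and sequencing depth. No spread between mice can be computed, no test was run and no difference given here has a replicate check. Libraries had been down-sampled to equal read numbers, and how many reads each value rests on is unknown.

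The deposited table can be read in more than 1 way as to which column is which genotype. Each row names its comparison as ApoE3 versus ApoE4, and that order was used, and the study's own list of genes that differ names its log2 ratios in the same way, but the sample numbering within the rows puts ApoE4 first. Under the numbering every direction between genotypes given here would be the opposite, whereas differences between time points would keep their direction and swap genotypes. Genotype differences are given as log2((FPKM ApoE3 + 1)/(FPKM ApoE4 + 1)), so a negative log2 ratio means higher in ApoE4. A gene is said to be past the fold when FPKM + 1 differed by at least 1.3-fold, the minimum fold of the study's own gene lists. Adding 1 understates the change of genes with low FPKM.

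Matricellular proteins are secreted into the extracellular matrix, where they bind cell-surface receptors, growth factors and structural proteins, and most of them are made during development and again after injury. In the injured spinal cord, fibroblasts and perivascular cells form a fibrotic core that is rich in fibronectin, collagens and periostin, and reactive astrocytes border it. Thrombospondins, tenascin C and periostin are the classical matricellular members of this group, fibronectin is a structural glycoprotein that forms fibrils, and fibulins and fibrillins are parts of microfibrils and elastic fibres. The segments held scar and surrounding cord together, so no value here belongs to the scar alone.

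Promoter sequences are shown for the members listed at 7 dpi whose RefSeq window ends at or near the annotated gene start, because several of these members were higher in ApoE4 together at 7 dpi and 3 of them were lower together at 21 dpi. RefSeq windows (GRCm38.p6) were found for 7 of the 10 members, 10 windows in all, and the 250 bases before the start are printed for 4 of them, 5′ to 3′ on the strand of the gene. Capitals mark matches, on either strand, to the 4 motifs searched, which were TATAAA for the TATA box, TGANTCA for AP-1 sites, GGAATG for TEAD sites and GGGCGG for GC boxes. The windows are chr17:14694263-14694512 on the minus strand for Thbs2, chr4:64047016-64047265 on the minus strand for Tnc, chr3:54360857-54361106 on the plus strand for Postn and chr15:85205699-85205948 on the plus strand for Fbln1.
Thbs2: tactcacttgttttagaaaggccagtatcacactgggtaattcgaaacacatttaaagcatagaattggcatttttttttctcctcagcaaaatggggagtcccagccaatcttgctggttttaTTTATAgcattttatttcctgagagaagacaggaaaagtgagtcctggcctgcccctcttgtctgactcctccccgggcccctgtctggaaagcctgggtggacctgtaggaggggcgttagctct
Tnc: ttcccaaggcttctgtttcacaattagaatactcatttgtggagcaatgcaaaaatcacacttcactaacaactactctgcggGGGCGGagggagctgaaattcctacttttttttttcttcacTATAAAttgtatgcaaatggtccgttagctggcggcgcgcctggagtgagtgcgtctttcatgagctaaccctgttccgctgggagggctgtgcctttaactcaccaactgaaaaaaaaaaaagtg
Postn: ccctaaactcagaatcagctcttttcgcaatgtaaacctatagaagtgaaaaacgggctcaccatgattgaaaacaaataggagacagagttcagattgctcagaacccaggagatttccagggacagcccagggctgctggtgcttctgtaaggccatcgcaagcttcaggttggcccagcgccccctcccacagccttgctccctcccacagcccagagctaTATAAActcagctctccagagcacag
Fbln1: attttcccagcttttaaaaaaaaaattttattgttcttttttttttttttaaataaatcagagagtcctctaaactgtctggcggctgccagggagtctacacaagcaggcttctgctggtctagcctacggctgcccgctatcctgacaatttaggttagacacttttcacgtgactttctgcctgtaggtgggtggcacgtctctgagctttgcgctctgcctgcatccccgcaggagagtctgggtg
TATAAA was present in 3 of these 4 windows, compared to 12.4% of all 32851 windows of the same length. Matches were counted on either strand and at any position, so a match is not by itself a TATA box. In Postn TATAAA began 26 bases before the start, whereas in Tnc and in Thbs2 it began 126 bases before it, in Thbs2 on the opposite strand. GGGCGG was present in 1 of the 4, that of Tnc, 167 bases before the start, compared to 32.7% of all windows. TGANTCA and GGAATG were in 0 of the 4, compared to 6.75% and 12.6% of all windows. These matches describe letters in the reference genome and are not evidence of a factor bound there.

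At 7 dpi, the thrombospondins, tenascin C and periostin were higher in ApoE4 than in ApoE3. Of the 7 members listed, 4 (Thbs1, Tnc, Postn and Thbs2) were higher in ApoE4 past the fold, compared to 4.76% of all 14125 genes, and 0 were higher in ApoE3, compared to 3.78%. Relative to the median log2 ratio of all genes, 0.0018, the counts were the same 4 and 0, compared to 4.82% and 3.76% of all genes. The 7 members had a median of -0.38. Fewer cells of a type and less RNA per cell cannot be told apart in these bulk segments.

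Thbs1 encodes thrombospondin-1, a trimeric glycoprotein that activates latent TGF-beta and binds CD36 and CD47. The gene lies on chromosome 2 (chr2:118111876-118127133, plus strand, GRCm38). It had 15.7 FPKM in ApoE3 versus 32.9 in ApoE4 at 7 dpi, and 1.79 in ApoE3 versus 2.77 in ApoE4 at 21 dpi. The ApoE4 value was the higher at each time point, and the value at 7 dpi was by far the higher in each genotype. At 7 dpi the log2 ratio was -1.02, a 2.03-fold difference in FPKM + 1, and 0.227% of all genes had a lower log2 ratio. Thbs2, its close relative (chr17:14665500-14694235, minus strand), had 33.1 FPKM in ApoE3 versus 43.5 in ApoE4 at 7 dpi. Its log2 ratio of -0.38 was only just past the fold, and 4.64% of all genes had a lower log2 ratio.

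Tnc encodes tenascin C, a hexameric glycoprotein made by reactive astrocytes and fibroblasts that modulates cell adhesion (chr4:63959785-64047015, minus strand). It had 55.2 FPKM in ApoE3 versus 96.6 in ApoE4 at 7 dpi, and 12.01 in ApoE3 versus 17.4 in ApoE4 at 21 dpi. The log2 ratio at 7 dpi was -0.80, and 0.531% of all genes had a lower log2 ratio. Postn encodes periostin, which binds integrins and takes part in collagen cross-linking (chr3:54361109-54391037, plus strand). It had 119 FPKM in ApoE3 versus 199.97 in ApoE4 at 7 dpi, and 17.4 in ApoE3 versus 26.1 in ApoE4 at 21 dpi. The log2 ratio at 7 dpi was -0.74, and 0.665% of all genes had a lower log2 ratio. Thbs1, Tnc and Postn held ranks 33, 76 and 95 from the lowest log2 ratio among the 14125 genes at 7 dpi.

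The members of microfibrils and elastic fibres were not past the fold at 7 dpi. Fbln1, which encodes fibulin-1, a calcium-binding partner of fibronectin and elastin (chr15:85205949-85286535, plus strand), had 38.0 FPKM in ApoE3 versus 48.6 in ApoE4, with a log2 ratio of -0.35 just short of the fold. Fbn1, which encodes fibrillin-1, the backbone of microfibrils (chr2:125300594-125507993, minus strand), had 36.7 FPKM in ApoE3 versus 43.6 in ApoE4, with a log2 ratio of -0.24. Sparcl1, which encodes SPARC-like 1 or hevin, a protein secreted by astrocytes that promotes synapse formation (chr5:104079111-104113733, minus strand), was the only member with a higher value in ApoE3 at 7 dpi. It had 2622 FPKM in ApoE3 versus 2366 in ApoE4, a log2 ratio of 0.15 that was not past the fold.

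**Figure D1:**
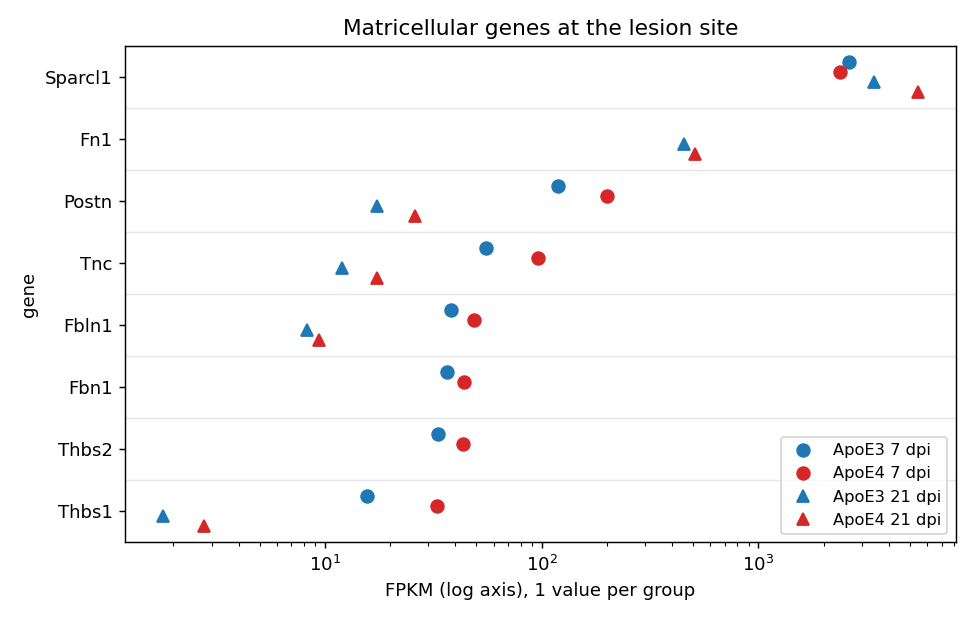
FPKM of the 8 listed members (log axis), 1 point per group, with circles for 7 dpi, triangles for 21 dpi, blue for ApoE3 and red for ApoE4. Thbs1, Tnc, Postn and Fbln1 lie farther left at 21 dpi than at 7 dpi in each genotype, whereas Sparcl1 lies farther right.

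The order of the levels was nearly the same in every group. Sparcl1 was the highest member in all 4 groups, and its FPKM was above that of 99.6% or more of all listed genes in each. At 7 dpi it was followed in each genotype by Postn, Tnc, Fbln1, Fbn1, Thbs2 and Thbs1. At 21 dpi Fn1 came after Sparcl1 in each genotype, followed by Postn, Tnc, Fbln1 and Thbs1. With 1 value per group, whether neighbours such as Fbn1 and Thbs2 in ApoE4 at 7 dpi, with 43.6 and 43.5 FPKM, differ beyond the spread between mice cannot be told.

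At 21 dpi, nearly all genes had lower values in ApoE3 than in ApoE4, and the members followed that shift. Over all genes whose mean FPKM was 1 or more, the median log2 ratio was -0.42, a 1.34-fold difference, and 93.8% of the 11472 genes had a log2 ratio below 0. The summed FPKM of all listed genes was 1513618 in ApoE3 versus 2050296 in ApoE4, whereas at 7 dpi it was 1668994 in ApoE3 versus 1669126 in ApoE4. Of the 6 members listed at 21 dpi, 4 (Sparcl1, Postn, Tnc and Thbs1) were higher in ApoE4 past the fold, compared to 58.9% of all genes, and 0 were higher in ApoE3, compared to 2.01%. That share lies near the share of all genes and is not a result about the members. Relative to the median of all genes, 0 members were past the fold in either direction, compared to 8.06% of all genes on the ApoE4 side and 7.46% on the ApoE3 side, and the median of the members was -0.044.

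Single members lay on either side of that median at 21 dpi. Thbs1 had a log2 ratio of -0.43, Tnc of -0.50 and Postn of -0.56, which were -0.010, -0.077 and -0.13 relative to the median. Sparcl1 had 3413 FPKM in ApoE3 versus 5434 in ApoE4 at 21 dpi, and its log2 ratio of -0.67 was the lowest of the members, or -0.25 relative to the median. Fn1, which encodes fibronectin, the fibril-forming glycoprotein on which much of the scar matrix assembles (chr1:71585520-71653200, minus strand), had 454 FPKM in ApoE3 versus 511 in ApoE4. Its log2 ratio of -0.17 turned to 0.25 relative to the median. Fbln1 had 8.30 FPKM in ApoE3 versus 9.43 in ApoE4, and its log2 ratio of -0.17 turned to 0.26 relative to the median.

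**Figure D2:**
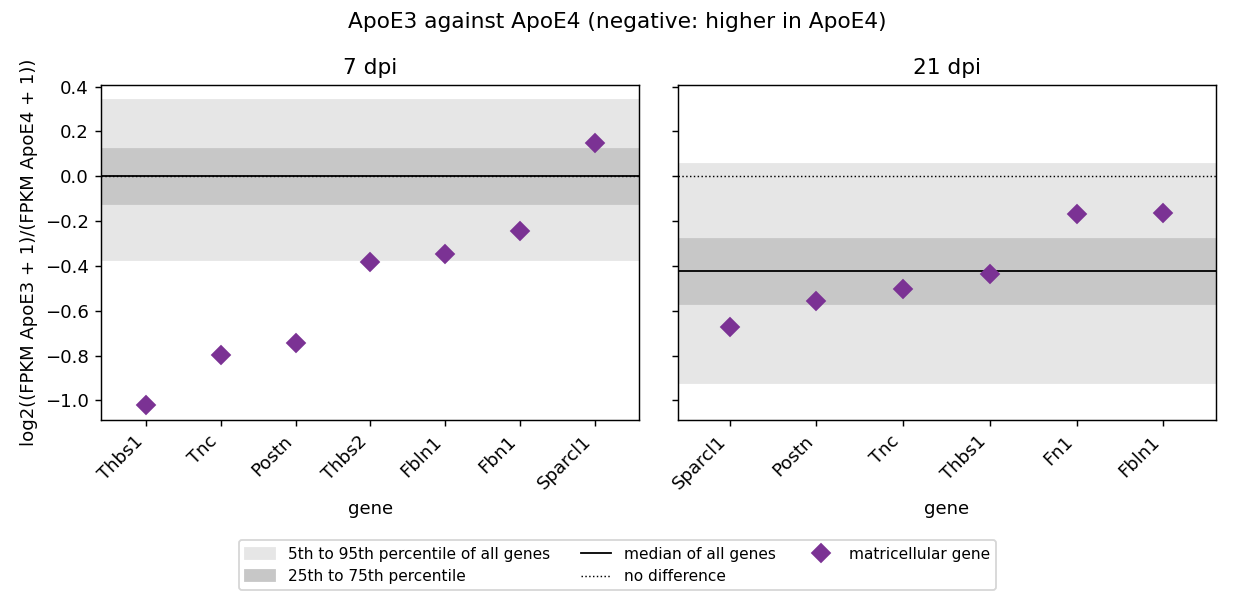
Log2 ratio of FPKM + 1 in ApoE3 to that in ApoE4 for each listed member (diamonds) at 7 dpi (left) and 21 dpi (right), with the median of all genes as a solid line, 0 as a dotted line and grey bands for the middle part and nearly the whole of the distribution of all genes, as the key states. Thbs1 (-1.02), Tnc (-0.80) and Postn (-0.74) lie well below the wider band at 7 dpi and Thbs2 (-0.38) at its edge, whereas every member lies within it at 21 dpi.

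Between 7 and 21 dpi, Thbs1, Tnc, Postn and Fbln1 were lower at the later time point in each genotype, and Sparcl1 was higher. These time ratios are log2((FPKM 21 dpi + 1)/(FPKM 7 dpi + 1)) within a genotype, so a negative value means lower at 21 dpi. The sources used here do not state whether the time points were normalized together, so the levels are only set side by side. Of the 5 members listed at both time points, 4 were lower at 21 dpi past the fold in ApoE3, compared to 23.6% of 10879 genes, and 1 was higher, compared to 31.3%. In ApoE4, 4 of 5 were lower, compared to 10.9% of all genes, and 1 was higher, compared to 59% of all genes. The median of the 5 was -2.11 in ApoE3 and -2.41 in ApoE4, whereas that of all genes whose mean FPKM was 1 or more was 0.089 in ApoE3 versus 0.53 in ApoE4. Relative to these medians, 4 members were lower in ApoE3, compared to 27.7% of all genes, and 0 were higher, compared to 26.6%. In ApoE4 the corresponding counts were 4 lower, compared to 28.6%, and 1 higher, compared to 26.1%.

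Postn had a time ratio of -2.70 in ApoE3 and -2.89 in ApoE4, with FPKM 6.83 times as high at 7 dpi as at 21 dpi in ApoE3 and 7.67 times in ApoE4. Thbs1 had a time ratio of -2.58 in ApoE3 and -3.17 in ApoE4, with FPKM 8.77 times as high at 7 dpi in ApoE3 and 11.9 times in ApoE4. Tnc had -2.11 in ApoE3 and -2.41 in ApoE4, and Fbln1 had -2.07 and -2.25. For each of these 4 genes in each genotype, at most 1.20% of all genes had a lower time ratio. After subtraction of the median of all genes, their time ratios ranged from -2.79 to -2.16 in ApoE3 and from -3.69 to -2.77 in ApoE4. Sparcl1 had a time ratio of 0.38 in ApoE3, which only just reached the fold and was 0.29 relative to the median, not past it. In ApoE4 it had 1.20, or 0.67 relative to the median.

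**Figure D3:**
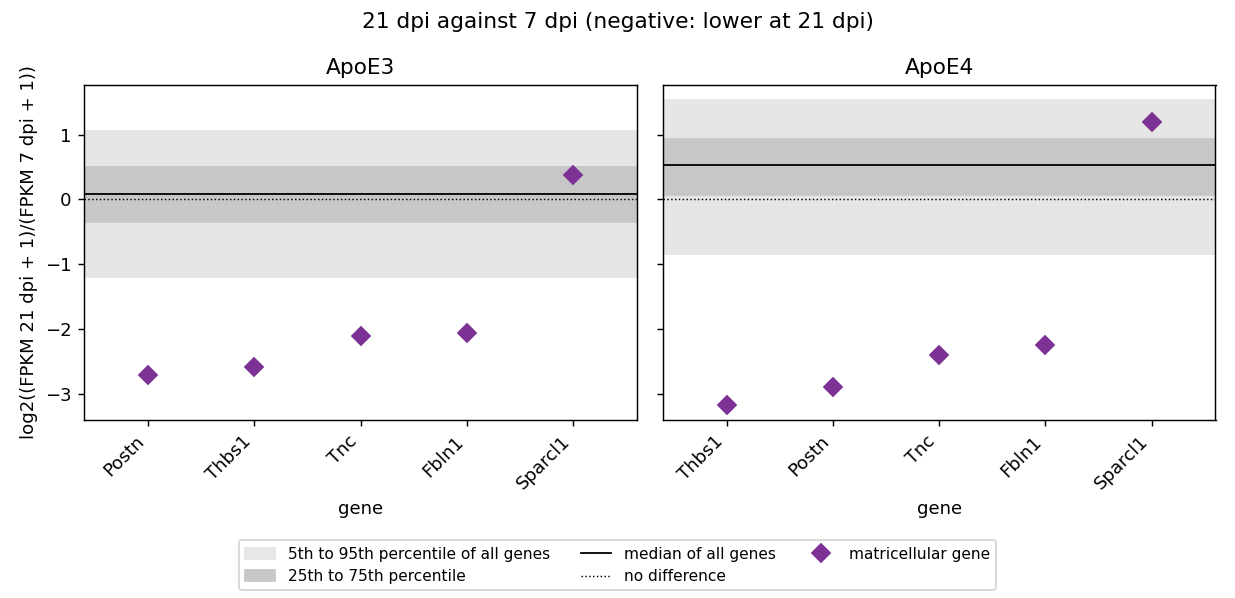
Log2 ratio of FPKM + 1 at 21 dpi to that at 7 dpi for the 5 members listed at both time points (diamonds), in ApoE3 (left) and ApoE4 (right), with the median of all genes as a solid line, 0 as a dotted line and grey bands for the distribution of all genes, as the key states. Postn, Thbs1, Tnc and Fbln1 lie below the wider band in each genotype, between -2.07 and -3.17, and Sparcl1 lies above 0.

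The pattern over the 4 groups was compared among 7945 genes whose mean FPKM was 10 or more at each time point. Likeness was the Euclidean distance between values of log2(FPKM + 1), each minus the mean of its gene, and the median profile of the 5 members listed at both time points. The nearest genes were Emp1, at a distance of 0.096, Zranb3 (0.17), AB124611 (0.21), Nrros (0.26) and Cd84 (0.28). Emp1, an epithelial membrane protein gene, had 115 FPKM in ApoE3 versus 163 in ApoE4 at 7 dpi, and 21.6 in ApoE3 versus 29.0 in ApoE4 at 21 dpi. Among the members, Thbs1 and Postn were nearest to each other, at 0.23, and so were Tnc and Fbln1, at 0.41. Sparcl1 stood apart from the others, with 2.99 to its nearest member, Fbln1.

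Other genes of the same families and partners were counted as lists, for which the shares of all genes printed with the counts of members are the comparison as well. The list of other matricellular and fibulin family genes held 25 genes, of which 21 were listed at 7 dpi. Of these, 4 were higher in ApoE4 past the fold and 1 was higher in ApoE3. Their median was -0.093. Fbln2, a fibulin of the vessel wall, had 50.3 FPKM in ApoE3 versus 88.8 in ApoE4 at 7 dpi, and 18.4 in ApoE3 versus 14.1 in ApoE4 at 21 dpi. Among the CCN genes, whose proteins bind integrins and growth factors, Ccn1 had 12.8 FPKM in ApoE3 versus 20.5 in ApoE4 at 7 dpi, and Ccn2 had 4.46 and 6.92. Ccn5 went the other way, with 22.4 FPKM in ApoE3 versus 14.3 in ApoE4 at 7 dpi, and 26.9 in ApoE3 versus 59.4 in ApoE4 at 21 dpi. Spock2, a testican proteoglycan gene with the highest mean FPKM of the list at 7 dpi, had 400.3 FPKM in ApoE3 versus 326 in ApoE4.

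At 21 dpi, 22 of these 25 genes were listed, with 9 higher in ApoE4 past the fold and 2 higher in ApoE3, and relative to the median of all genes 2 were higher in ApoE4 and 9 in ApoE3. Their median was -0.10, which turned to 0.32 relative to the median of all genes. Spp1, which encodes osteopontin, a product of activated macrophages and microglia, had 918 FPKM in ApoE3 versus 1809 in ApoE4 at 21 dpi, and was not listed at 7 dpi. Spock3 had 76.2 FPKM in ApoE3 versus 129 in ApoE4, and Smoc2, a SPARC-related gene, had 4.97 and 1.88. Over time, 6 of the 20 genes of this list with values at both time points were lower at 21 dpi past the fold in ApoE3 and 5 were higher, or 9 and 5 relative to the median of all genes. In ApoE4 8 were lower and 8 higher, or 10 and 5 relative to it.

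Microfibril and elastic fibre partners were counted from a list of 14 genes, all of them listed at 7 dpi. Of these, 7 were higher in ApoE4 past the fold, compared to 4.76% of all genes, and 0 were higher in ApoE3 past it, with a median of -0.40, and 2 had a log2 ratio above 0. Mfap4, a microfibril-associated glycoprotein gene, had 42.7 FPKM in ApoE3 versus 77.5 in ApoE4, and Mfap5 had 9.06 and 14.7. Ltbp2, a latent TGF-beta binding protein gene, had 10.96 FPKM in ApoE3 versus 17.0 in ApoE4, and Lox, whose product cross-links collagen and elastin, had 14.9 and 22.4. Ltbp3 had the highest mean FPKM of the list, with 450.0 in ApoE3 versus 515 in ApoE4, and was not past the fold.

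At 21 dpi 9 of these 14 genes were listed, with 4 higher in ApoE4 past the fold and 1 higher in ApoE3, or 0 and 3 relative to the median of all genes, and their median of -0.18 turned to 0.24 relative to it. Emilin2 had 29.7 FPKM in ApoE3 versus 48.7 in ApoE4 at 21 dpi, Ltbp1 had 29.5 and 48.4, and Mfap2 had 11.1 and 16.1. Mfap5 stood out in the other direction, with 19.2 FPKM in ApoE3 versus 1.97 in ApoE4. In ApoE3, 4 of the 9 genes were lower at 21 than at 7 dpi past the fold and 2 were higher, the same numbers as relative to the median of all genes. In ApoE4 5 were lower and 2 higher, or 7 and 0 relative to it.

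Receptors of the members were counted from a list of 20 genes, of which 19 were listed at 7 dpi. Of these, 5 were higher in ApoE4 past the fold and 1 was higher in ApoE3, with a median of -0.090. Cd36, a scavenger receptor that binds thrombospondin-1, had 1292 FPKM in ApoE3 versus 1805 in ApoE4 at 7 dpi. Itga5, the alpha chain of the classical fibronectin receptor, had 29.5 FPKM in ApoE3 versus 43.9 in ApoE4, and Calr, the calreticulin gene, had 300.1 and 436. Stab1, a scavenger receptor gene of macrophages and sinusoidal endothelium, had 329 FPKM in ApoE3 versus 559 in ApoE4 at 7 dpi, and 36.7 and 43.1 at 21 dpi. At 21 dpi 14 receptor genes were listed, with 11 higher in ApoE4 past the fold and 0 in ApoE3, or 4 and 0 relative to the median of all genes, and a median of -0.49, or -0.069 relative to it. These 4 were Ptprz1, a receptor phosphatase that binds tenascins, with 78.0 FPKM in ApoE3 versus 153 in ApoE4, and the integrin genes Itgb8 (4.97 and 10.3), Itgb5 (231 and 415) and Itgav (48.8 and 86.4). Over time 10 of the 14 receptors were lower at 21 dpi past the fold in ApoE3 and 0 were higher, and in ApoE4 7 were lower and 2 higher. With the median of all genes subtracted, 11 were lower and 0 higher in each genotype.

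Proteases that cleave members were counted from a list of 13 genes, of which 11 were listed at 7 dpi, with 2 higher in ApoE4 and 2 higher in ApoE3 past the fold and a median of -0.25. Plau, the urokinase gene, had 47.7 FPKM in ApoE3 versus 71.9 in ApoE4, and Mmp2, a gelatinase gene, had 39.5 and 56.6. Mmp3 had 1.82 FPKM in ApoE3 versus 0.768 in ApoE4, and Mmp13 had 6.01 and 3.84, all low levels. Ctsb, the cathepsin B gene, was the most abundant, with 1923 FPKM in ApoE3 versus 2330 in ApoE4 at 7 dpi, and 599 and 930 at 21 dpi. At 21 dpi 9 were listed, with 6 higher in ApoE4 past the fold and 0 in ApoE3, or 1 and 1 relative to the median of all genes, and a median of -0.50, or -0.078 relative to it. Plau had 11.9 FPKM in ApoE3 versus 23.5 in ApoE4 at 21 dpi, Mmp9 had 11.5 and 20.0, and Adamts1 had 4.70 and 7.76. Over time 6 of the 9 were lower at 21 dpi past the fold in each genotype and 1, Mmp9, was higher. After subtracting the median of all genes, 7 were lower in ApoE3 and 8 in ApoE4, and 1 was higher in each.

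Markers of the cell types in the segment moved together with several of these genes, and their part in the results was not tested. Fibroblast markers moved in the direction of the members at 7 dpi: all 14 were listed, 6 were higher in ApoE4 past the fold and 0 in ApoE3, and the median was -0.36. Their summed level was 1042 FPKM in ApoE3 versus 1387 in ApoE4, and 0 of them were listed at 0. Col1a1, a chain of type I collagen with the highest mean FPKM of the 2 genotypes, had 212 FPKM in ApoE3 versus 270.0 in ApoE4, and Col5a1 had 29.2 and 49.5. Col6a3 had 186 FPKM in ApoE3 versus 285 in ApoE4, and Cthrc1, a gene of collagen-producing fibroblasts, had 48.1 and 74.9. Mfap5, given above among the microfibril genes, belongs to this list too.

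At 21 dpi 11 fibroblast markers were listed, with 1 higher in ApoE4 past the fold and 4 in ApoE3, or 0 and 7 relative to the median of all genes, a median of 0.077, or 0.50 relative to it, and a summed level of 215 FPKM in ApoE3 versus 172 in ApoE4. Pdgfra had the highest mean FPKM of the 2 genotypes, with 42.0 FPKM in ApoE3 versus 58.8 in ApoE4, opposite in direction to the summed level. In bulk segments its level cannot be assigned to fibroblasts alone. The largest differences toward ApoE3 were those of Dcn, the decorin gene, with 61.9 FPKM in ApoE3 versus 9.37 in ApoE4, and Mfap5, with 19.2 and 1.97. Lum, the lumican gene, had 1.44 and 0.675. Of the 11 markers, 7 had a log2 ratio above 0 and 4 below it. Over time 9 of the 11 fibroblast markers were lower at 21 dpi past the fold in ApoE3 and 2 were higher, with medians of -2.02 in ApoE3 and -2.47 in ApoE4, where all 11 were lower. In ApoE3 9 were lower and 1 higher relative to the median of all genes, and in ApoE4 11 and 0. Their summed level was 998 FPKM at 7 dpi and 215 at 21 dpi in ApoE3, and 1323 at 7 dpi and 172 at 21 dpi in ApoE4. Col1a1 itself had 2.44 FPKM in ApoE3 versus 2.27 in ApoE4 at 21 dpi.

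Macrophage and microglia markers were also lower at 21 dpi. All 7 markers with values at both time points were lower past the fold in ApoE3 and 5 of 7 in ApoE4, or 7 and 6 relative to the median of all genes, and their summed level was 6117 FPKM at 7 dpi and 568 at 21 dpi in ApoE3, and 7893 and 1052 in ApoE4. At 7 dpi, 9 of 11 were listed, with 1, Lyz2, higher in ApoE4 past the fold and 0 in ApoE3, a median of -0.20 and a summed level of 7429 FPKM in ApoE3 versus 9591 in ApoE4. Each of the 7 listed at 21 dpi was higher in ApoE4 past the fold, or 3 relative to the median of all genes, with a median of -0.77, or -0.34 relative to it. Lyz2, the lysozyme gene and the most abundant, had 4522 FPKM in ApoE3 versus 6076 in ApoE4 at 7 dpi, and 212 and 426 at 21 dpi. The next named markers at 21 dpi were Adgre1, with 10.8 FPKM in ApoE3 versus 25.8 in ApoE4, Aif1, with 166 and 320, and Itgam, with 14.2 and 24.96.

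Astrocyte markers had 0 of 9 past the fold at 7 dpi, with a median of 0.057 and a summed level of 17594 FPKM in ApoE3 versus 17101 in ApoE4. Each of the 10 was higher in ApoE4 past the fold at 21 dpi, or 2 relative to the median of all genes, with a median of -0.66, or -0.23 relative to it, and a summed level of 13939 FPKM in ApoE3 versus 24092 in ApoE4. Gfap, the most abundant, had 12395 FPKM in ApoE3 versus 12386 in ApoE4 at 7 dpi, and 8201 and 15313 at 21 dpi. Aqp4 had 833 FPKM in ApoE3 versus 1472 in ApoE4 at 21 dpi, Slc1a2 had 1057 and 1802, and Gjb6 had 291 and 498. Over time, 4 of 9 astrocyte markers were lower past the fold in ApoE3 and 1 higher, and in ApoE4 1 was lower and 4 higher. Relative to the median of all genes 4 were lower and 1 higher in ApoE3, with a median of -0.34, and 3 were lower and 2 higher in ApoE4, with a median of -0.22.

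Neuron markers had a median of 0.26 at 7 dpi, where 9 of 10 were listed and 1, Snap25, was higher in ApoE3 past the fold, with a summed level of 9861 FPKM in ApoE3 versus 7711 in ApoE4. Snap25 had 3366 FPKM in ApoE3 versus 2545 in ApoE4, and Map2, the most abundant, had 4119 and 3184. At 21 dpi 8 were listed and 6 were higher in ApoE4 past the fold, or 2 relative to the median of all genes, with a median of -0.62, or -0.20 relative to it, and a summed level of 11034 FPKM in ApoE3 versus 17126 in ApoE4. Those 2 were Nefm, with 609 FPKM in ApoE3 versus 1149 in ApoE4, and Nefh, with 301 and 543. In ApoE4 all 8 with values at both time points were higher at 21 dpi past the fold, and in ApoE3 6 were higher and 1 lower, or 7 higher in ApoE4 and again 6 and 1 in ApoE3 relative to the median of all genes. Oligodendrocyte markers had 0 of 4 past the fold at 7 dpi, with a median of 0.031 and a summed level of 126973 FPKM in ApoE3 versus 134118 in ApoE4. Each of the 6 listed at 21 dpi was higher in ApoE4 past the fold but 0 relative to the median of all genes, with a median of -0.54, or -0.11 relative to it, and a summed level of 227882 FPKM in ApoE3 versus 321181 in ApoE4. Mbp, the most abundant, had 120571 FPKM in ApoE3 versus 127575 in ApoE4 at 7 dpi, and 201348 and 278678 at 21 dpi.

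Endothelial markers had 0 of 8 past the fold at 7 dpi, with a median of -0.041 and a summed level of 276 FPKM in ApoE3 versus 275 in ApoE4. At 21 dpi 2 of 7, Emcn and Flt1, were higher in ApoE4 past the fold, or 1 on either side relative to the median of all genes, with a median of -0.34 that turned to 0.085 relative to it and a summed level of 253 and 325 FPKM. Flt1, the most abundant, had 92.4 FPKM in ApoE3 versus 81.8 in ApoE4 at 7 dpi, and 106 and 138 at 21 dpi. Smooth muscle and pericyte markers had 3 of 9 higher in ApoE4 past the fold at 7 dpi and 0 in ApoE3, with a median of -0.29 and a summed level of 252 FPKM in ApoE3 versus 278 in ApoE4. These 3 were Cnn1, with 1.68 FPKM in ApoE3 versus 3.45 in ApoE4, Acta2, with 23.5 and 31.6, and Tagln, with 52.4 and 69.2. At 21 dpi 3 of 7 were higher in ApoE4 past the fold and 0 in ApoE3, or 1 and 1 relative to the median of all genes, with a median of -0.32 that turned to 0.10 relative to the median of all genes and a summed level of 183 and 229 FPKM. Rgs5, the most abundant, had 109 FPKM in each genotype at 7 dpi.

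Markers of tissues outside the cord differed widely between the groups at 21 dpi, and their part in the values of the members was not tested either. Their summed levels cover the genes listed at each time point, which were not all the same. Skeletal muscle markers had a median of -4.03 at 21 dpi, or -3.61 relative to the median of all genes, with 8 of 8 listed genes higher in ApoE4 and a summed level of 34.1 FPKM in ApoE3 versus 732 in ApoE4. Tnnt3, the most abundant, had 22.5 FPKM in ApoE3 versus 515 in ApoE4, and Myh4 was listed at 0 in ApoE3. At 7 dpi, 8 muscle markers had a median of 0.23, with 1 higher in ApoE4 and 2 in ApoE3 past the fold. Pvalb, which neurons express too and which was not listed at 21 dpi, had 98.3 of their summed 168 FPKM in ApoE3 and 86.4 of 133 in ApoE4. The 6 muscle markers with values at both time points had a summed level of 65.5 FPKM in ApoE3 versus 42.8 in ApoE4 at 7 dpi. Liver markers had 8 of 8 listed genes higher in ApoE4 at 21 dpi, with a median of -2.64, or -2.22 relative to the median of all genes, and a summed level of 10.9 FPKM in ApoE3 versus 131 in ApoE4. Apoa2, the most abundant, had 5.38 FPKM in ApoE3 versus 59.2 in ApoE4. At 7 dpi 1 gene of the liver list was listed, Trf, which oligodendrocytes express too, with 1676 FPKM in ApoE3 versus 1647 in ApoE4.

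Schwann cell markers were higher in ApoE3 at 21 dpi, 6 of 6 past the fold, with a median of 1.51, or 1.94 relative to the median of all genes, and a summed level of 3047 FPKM in ApoE3 versus 1077 in ApoE4. Pmp22 was the most abundant, with 1969.9 FPKM in ApoE3 versus 992 in ApoE4. At 7 dpi 4 were listed, with 2 higher in ApoE4 and 1 in ApoE3 past the fold, or 2 and 0 relative to the median of all genes, a median of -0.29 and a summed level of 739 and 735 FPKM. Sensory ganglion markers were higher in ApoE3 for 7 of 7 genes at 21 dpi, with a median of 2.32, or 2.75 relative to the median of all genes, and a summed level of 83.9 FPKM in ApoE3 versus 3.27 in ApoE4. Avil, the most abundant, had 39.1 FPKM in ApoE3 versus 1.20 in ApoE4, whereas in ApoE4 Mrgprd and Trpv1 were at 0 in the table. At 7 dpi 2 were listed, Prph and Isl1, with a median of 0.32 and a summed level of 107 FPKM in ApoE3 versus 94.5 in ApoE4, nearly all of it Prph (106 and 94.1), which spinal motor neurons express too.

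Meninges markers had 2 of 7 genes higher in ApoE3 past the fold at 7 dpi, with a median of 0.15 and a summed level of 908 FPKM in ApoE3 versus 815 in ApoE4, nearly all of it Ptgds (888 and 802). At 21 dpi 2 of 3 were higher in ApoE3, with a median of 0.55, or 0.98 relative to the median of all genes, and a summed level of 14.7 FPKM in ApoE3 versus 8.03 in ApoE4, of which Slc6a13 had 11.2 and 5.24. Tendon and cartilage markers had 1 of 5, Col2a1, higher in ApoE4 past the fold at 7 dpi, with a median of 0.015 and a summed level of 52.2 FPKM in ApoE3 versus 49.5 in ApoE4. At 21 dpi 3 of 4 were higher in ApoE4 but 0 relative to the median of all genes, with a median of -0.54, or -0.12 relative to it, and a summed level of 44.7 FPKM in ApoE3 versus 66.4 in ApoE4. Fmod was the most abundant at each time point, with 18.8 FPKM in ApoE3 versus 30.7 in ApoE4 at 21 dpi.

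**Figure D4:**
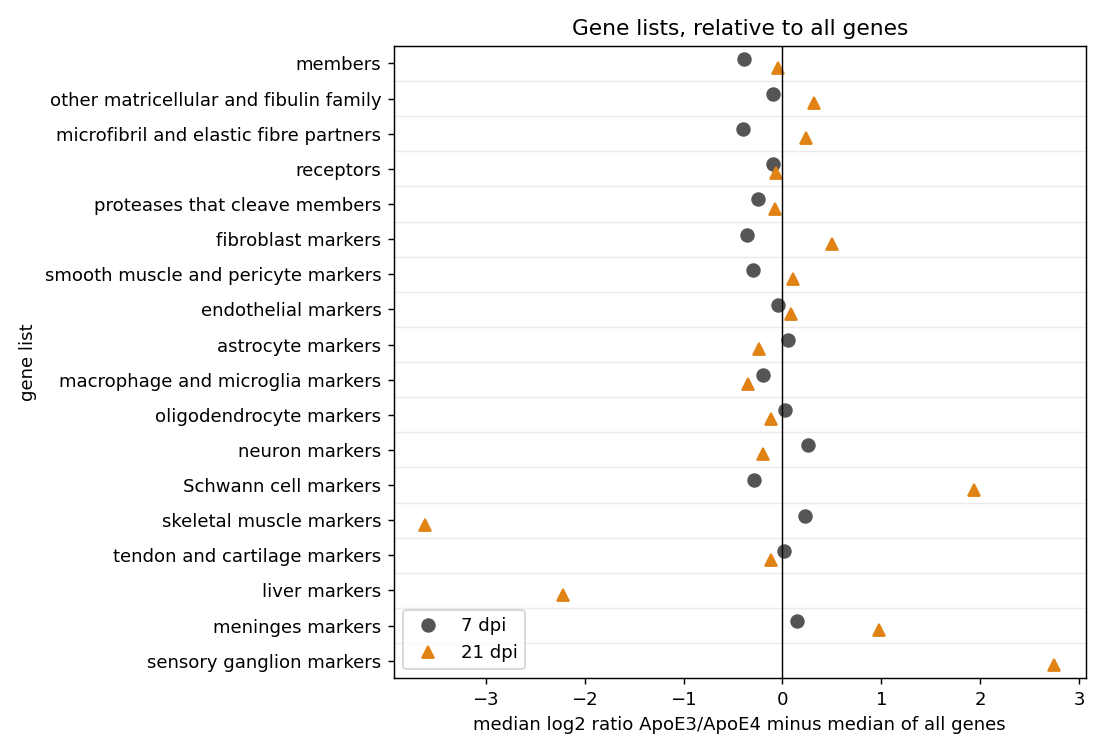
Median log2 ratio of ApoE3 to ApoE4 of the members and of each of the 17 other gene lists, minus the median of all genes, at 7 dpi (circles) and 21 dpi (triangles), with no point where the plot would rest on fewer than 3 genes. At 7 dpi the members (-0.38), the microfibril partners (-0.40) and the fibroblast markers (-0.36) lie farthest left, and at 21 dpi the members (-0.044) lie near 0 while markers of muscle, liver, Schwann cells and sensory ganglia lie far from it.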

How the data were processed

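RNA from the lesion segments of 4 groups of male mice was measured by RNA-seq. The values deposited by the authors are FPKM plus 1. They used STAR 2.5.4b, SAMtools 0.1.7 and Cuffdiff 1.3.0, and Bowtie2, for which the submitters' processing notes give version 2.1.10. The genome build and annotation are not given in the sources used here. That table also gives the authors' fold changes, p-values and q-values, and a second table holds their log2 fold changes. No result was computed from these. Only the order of the groups in those fold changes was used, in choosing which column to read as ApoE3.

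From the deposited values, 1 was subtracted to give FPKM, and log2 ratios used a pseudocount of 1. The 2 symbols at each time point that stood on 2 rows were averaged. No test was run, since each group has 1 value per gene, and the reads per gene are unknown, so no counting error is given. The members and the 17 gene lists were chosen with earlier results of these data known. The genes named are all members and, of each other list, up to 4 past the fold with the largest absolute log2 ratio at each time point and the gene with the highest mean FPKM; a few others, among them Col1a1 at 21 dpi, genes listed at 0 and genes behind a small count, were chosen after their values were seen. The values of 1 gene that this rule takes are not reported here. Gene positions are from GENCODE (GRCm38) and promoters from RefSeq (GRCm38.p6). The alternatives were pseudocounts of 0.1 and 0.01, a mean FPKM of at least 1, subtraction of the median of all genes, and a fold of 1.5 or 2. Python 3.11.15, numpy 2.4.6, pandas 2.3.3 and matplotlib 3.10.9 were used, and the ratios and counts were tested on simulated data.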

Additional observations from a re-analysis of the deposited data

Results flagged for a closer look

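Values whose sign differed between the time points are given here. With 1 value per group the difference between time points was not tested, and all values at 21 dpi include the shift of -0.42 in the median of all genes. Sparcl1 had a log2 ratio of ApoE3 to ApoE4 of 0.15 at 7 dpi and -0.67 at 21 dpi, the only member of the 5 with values at both time points whose sign differed in unshifted ratios. Relative to the median of all genes, Sparcl1 had 0.15 and -0.25, and the sign of Fbln1 differed too, with -0.35 at 7 dpi and 0.26 at 21 dpi.

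Of the 17 other gene lists, 7 with at least 3 genes at each time point had medians of opposite sign. The median of the fibroblast markers was -0.36 at 7 dpi and 0.077 at 21 dpi, and that of the Schwann cell markers was -0.29 and 1.51. The other 5 were above 0 at 7 dpi and below 0 at 21 dpi. The medians were 0.057 and -0.66 for astrocyte markers, 0.031 and -0.54 for oligodendrocyte markers, and 0.26 and -0.62 for neuron markers. For skeletal muscle markers they were 0.23 and -4.03, and for tendon and cartilage markers 0.015 and -0.54. Relative to the median of all genes these signs were still opposite, and so were those of the other matricellular and fibulin family (-0.095 and 0.32), the microfibril partners (-0.40 and 0.24), the smooth muscle and pericyte markers (-0.29 and 0.10) and the endothelial markers (-0.043 and 0.085).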

How the results depend on the processing

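Pseudocounts of 0.1 and 0.01 and a mean FPKM of at least 1 changed no direction and no side of the fold for any member or count of members. They were not applied to the counts of the other lists. At 7 dpi the median of the members, -0.38, fell short of a fold of 1.5 or 2, and 1 member, Thbs1, rather than 4 was higher in ApoE4 past a fold of 2. At 21 dpi the median was -0.044 relative to the median of all genes, with 0 members rather than 4 past the fold. The median without that subtraction, -0.47, fell short of a fold of 1.5 or 2, with 1 member higher in ApoE4 at a fold of 1.5 and 0 at a fold of 2. The number of members higher at 21 than at 7 dpi in ApoE3 went from 1 to 0 relative to the median of all genes and at a fold of 1.5 or 2. These changes follow from the stricter folds and from the subtraction itself. Of 138 values of single members under these alternatives, 120 kept their side of the fold and 18 were no longer past it. Fn1 and Fbln1 at 21 dpi, neither of them past the fold, changed sign to 0.25 and 0.26 relative to the median of all genes. With genotypes read by column number, an alternative added once the data had been seen, the medians were 0.38 at 7 dpi and 0.47 at 21 dpi, the reverse of those reported. No paired analysis was possible because each group has 1 value per gene, and for the same reason no replicate could be left out. The reads behind each value are unknown, so the low values of Thbs1 at 21 dpi (1.79 and 2.77 FPKM) have an unknown counting error.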

Other observations

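Some genes outside the naming rule, chosen after their values were seen, had levels that differed widely between time points. Eln, the elastin gene, which encodes the core of elastic fibres, had a log2 ratio of ApoE3 to ApoE4 of 0.32 at 7 dpi, on the other side of 0 from Fbln1 and Fbn1, and of 0.013 at 21 dpi, or 0.44 relative to the median of all genes. Its time ratio was -3.41 in ApoE3 and -3.10 in ApoE4. Tnr, which encodes tenascin R, a tenascin of oligodendrocytes and perineuronal nets, had 225 FPKM in ApoE3 versus 224 in ApoE4 at 7 dpi, and 64.4 and 93.3 at 21 dpi. Col3a1, a fibrillar collagen gene of fibroblasts, had 178 FPKM in ApoE3 versus 243 in ApoE4 at 7 dpi, and 2.31 and 1.79 at 21 dpi.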
